A study of Homo sapiens with 6 samples.

Results

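ZNF genes form a large family of human zinc finger genes, of which 263 protein-coding members lie away from chromosome 19, out of 58735 genes in the count tables. They were chosen by symbol (ZNF followed by digits, with a letter suffix allowed in 28), by GENCODE 29 gene type, and by a place on an autosome other than 19 or on X. The symbols of 2 read-through genes did not meet the rule. RNA was sequenced from Jurkat cells, a human leukaemic T cell line, in 3 libraries of cells infected with a lentiviral short hairpin RNA against SATB1 (shSATB1) and 3 libraries of cells infected with a control hairpin vector (shCtrl). SATB1 is a chromatin organiser of thymocytes and T cells that binds AT-rich DNA. One hairpin label was used for the knockdown, and untreated cells are not analysed here. Nothing in the labels says that the libraries of a group came from separate cultures, so p-values reflect how much these libraries vary, and that variation may be technical. SATB1 itself stood at 102, 100 and 104 CPM (read counts scaled to library size) in shSATB1 libraries 1, 2 and 3, against 279, 259 and 259 CPM in shCtrl libraries 1, 2 and 3. All shSATB1 libraries were lower, with a log2 difference of -1.38.

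Most ZNF proteins are DNA-binding factors built from runs of C2H2 zinc fingers, each of which contacts a few bases. Many of them also carry a KRAB domain, which recruits the corepressor TRIM28 and, through it, the histone methyltransferase SETDB1 and heterochromatin protein 1, and a large share of those silence transposable elements. Other members work without KRAB, as promoter factors, as subunits of LSD1, NuRD or G9a corepressor complexes, or as RNA-binding and ribosome-associated proteins. The genes off chromosome 19 include small clusters of recent duplicates, as well as many old, isolated genes.

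Reads in genes numbered 26626539 to 28143385 per shSATB1 library and 27737353 to 28913623 per shCtrl library. Of the 263 members, 221 had enough reads to be tested and 42 did not. Among those 42, the highest group mean was 0.390 CPM and 23 had no read in any library, which at this depth allows up to 0.103 to 0.111 CPM (3 reads, counting error only). The members took 0.995%, 0.959% and 0.980% of the reads in genes in shSATB1 libraries 1 to 3, against 0.874%, 0.787% and 0.839% in shCtrl libraries 1 to 3, and the groups did not overlap. The 9 T cell markers examined were all present and summed to 3412 to 3544 CPM in shSATB1 and 3260 to 3688 CPM in shCtrl. They moved in both directions: in edgeR tests with and without a correction for transcript length PTPRC and TRAC were higher and CD3D, CD2 and TRBC1 lower, CD3G was higher with the correction only, and CD3E, CD7 and LCK were not called. The 8 markers of other cell types summed to 21.9 to 23.1 CPM in shSATB1 and 15.2 to 18.3 CPM in shCtrl. EPCAM was at 0 in every library. Nearly all of that sum was COL1A1, at 20.8 ± 0.694 CPM in shSATB1 and 15.5 ± 1.52 CPM in shCtrl (SD, n = 3 each), and its part in the results was not tested. In bulk RNA, fewer cells expressing a gene and less RNA per cell cannot be told apart.

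More of the ZNF genes were called higher than lower in shSATB1 libraries. In edgeR's quasi-likelihood test on all 17520 genes with enough reads, 69 of the 221 tested members rose and 12 fell at a Benjamini-Hochberg adjusted p under 0.05 (31.2% and 5.43% of members). Over all tested genes 14.3% were called higher and 16.6% lower. The median log2 fold change was 0.17 for the members and 0.01 for all tested genes, and 75.6% of members had a positive value. In CPM, all 3 shSATB1 libraries lay above all 3 shCtrl libraries for 94 members (42.5%) and below for 22 (9.95%), beside 21.7% and 23.4% of all tested genes. The 140 members that were called in neither direction had values of either sign.

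Fold change in these libraries depended on transcript length, and the members are long. The longest annotated transcript had a median of 4213 bases over the tested members and 3005 over all tested genes. In the plain test, the median log2 fold change over all genes was -0.05, -0.10, -0.03, 0.03 and 0.14 in 5 equal bins running from the shortest to the longest transcripts. The members gave 0.04 (26 genes), 0.09 (57), 0.17 (64) and 0.24 (73) in the second to the fifth bin. Members therefore lay above all genes of like length in each of those 4 bins, by a smaller margin than the uncorrected medians give.

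To take that trend into account, a smooth curve of expression on transcript length was removed from each library before the test. In this length-corrected fit 56 members rose and 22 fell (25.3% and 9.95%), beside 13.2% and 18.5% of all tested genes. The members' median log2 fold change was 0.11, beside -0.01 for all tested genes and -0.03 for protein-coding genes, and 68.3% of members were positive. The length trend had left all-gene medians of 0.01, -0.03, -0.00, -0.01 and -0.00 in the 5 bins, while the members stood at 0.11, 0.13, 0.12 and 0.10 in the second to the fifth. The rises were mostly small, with a median of 1.23-fold and a range of 1.13-fold to 3.06-fold, and 7 of the 56 reached 1.5-fold. The falls ran from 1.12-fold to 2.45-fold with a median of 1.24-fold, and 1 of the 22 reached 1.5-fold, ZNF750, whose mean was under 1 CPM.

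**Figure D1:**
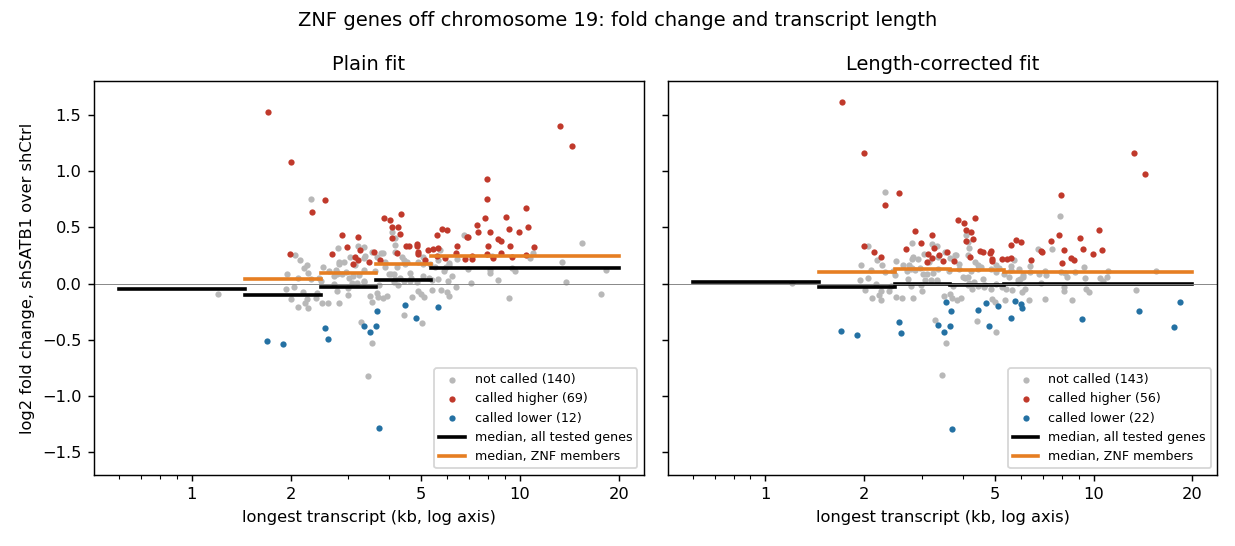
Log2 fold change (shSATB1 over shCtrl) of the 221 tested ZNF genes against the length of the longest transcript in kb (log axis), in the plain fit (left) and the length-corrected fit (right). Points are genes coloured by call, black lines are medians of all 17520 tested genes in 5 length bins, and orange lines are medians of the members in bins with at least 20 of them. The black lines climb to 0.14 on the left and stay between -0.03 and 0.01 on the right, and the orange lines lie above them in both.

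Both fits called 53 members higher and 12 lower, beside 11.4% and 14.6% of all tested genes called in both. The correction took away 16 rises, and these genes had long transcripts, with a median of 7685 bases. They included ZNF106, ZNF407, ZNF518A, ZNF609, ZNF638 and ZNF827. It added 3 rises, ZNF124, ZNF287 and ZNF513, and 10 falls, among them ZNF664, ZNF639, ZNF652, ZNF589 and ZNF26. The size of the correction ran over the tested members from -0.10 to 0.29 on the log2 scale, shSATB1 minus shCtrl, with a median of 0.03.

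The counts depended on which libraries were used. Without shSATB1 1, shSATB1 3 or shCtrl 3, the plain test called 40, 45 and 44 members higher, and without shSATB1 1 or shSATB1 3 it called 6 and 5 lower. In the length-corrected fit, 35 members were called higher without shSATB1 1. The length-corrected falls numbered 12, 14, 11 and 13 without shSATB1 1, shSATB1 2, shSATB1 3 and shCtrl 3. Of the length-corrected calls, 30 of 56 rises and 10 of 22 falls held whichever library was left out. The length-corrected median stayed between 0.09 and 0.12 in those fits.

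A difference in library composition ran alongside the groups. Reads falling outside every annotated exon were 11.7%, 10.9% and 11.6% of shSATB1 libraries 1 to 3, against 10.2%, 7.77% and 9.36% of shCtrl libraries 1 to 3. The shCtrl 2 library was lowest in that share and also farthest in its length trend, with genes of 8000 bases 0.19 below their mean on the log2 scale, where the other libraries lay between -0.07 and 0.10. With the share of such reads as a covariate, 13 members were higher and 4 lower in the plain fit, and 11 were higher and 3 lower in the length-corrected fit. The 11 were ZNF24, ZNF117, ZNF217, ZNF462, ZNF467, ZNF641, ZNF683, ZNF720, ZNF721, ZNF821 and ZNF853. They are 4.98% of the members, beside 5.13% of all tested genes, so in that fit the share of members called higher was no greater than the background. The 3 falls are 1.36% of the members, beside 7.13% of all tested genes. Of the 22 falls called without the covariate, 2 were kept, ZNF330 and ZNF488. The remaining fall, ZNF142 (-0.35, adjusted p = 0.0136, edgeR), was not called without it. Of the plain calls, 12 of 69 rises and 2 of 12 falls were kept. In the plain fit 5.88% of members were higher and 1.81% lower, beside 4.90% and 7.20% of all tested genes. The members' median was then 0.064 in the plain fit and 0.066 in the length-corrected fit, beside -0.014 and -0.0054 for all tested genes. The groups do not overlap in this share, so it and the knockdown cannot be told apart.

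**Figure D2:**
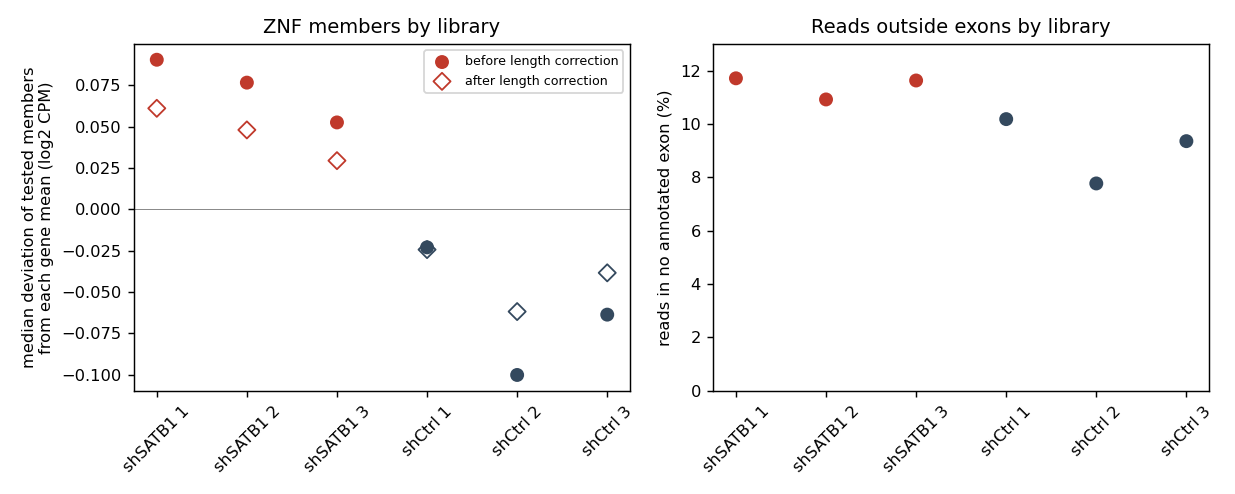
Left, the median deviation of the tested ZNF genes from each gene's mean over the 6 libraries (log2 CPM), before (filled circles) and after (open diamonds) the length correction. Right, the percentage of reads in no annotated exon. Red marks are shSATB1 libraries and dark marks shCtrl libraries: the 3 shSATB1 libraries lie higher than the 3 shCtrl libraries in both panels, and shCtrl 2 is lowest in both.

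Members that rose in both fits were ranked by length-corrected rise if they had at least 2 CPM in shSATB1 and no overlap between the groups. The 8 largest were ZNF821, ZNF467, ZNF81, ZNF157, ZNF713, ZNF853, ZNF484 and ZNF462. Separation of the groups was thus a condition of the choice and is no further evidence for these genes. ZNF821 (chr16:71859680-71895336 in hg38, minus strand) was measured at 2.77, 2.72 and 2.69 CPM in shSATB1, against 1.04, 1.49 and 1.33 CPM in shCtrl. Its groups lay far apart, with a length-corrected log2 fold change of 1.16 (SE 0.202; adjusted p = 0.000468, edgeR), or 2.23-fold. Exons of genes on the opposite strand, IST1 among them, cover 37.5% of its exon bases, so without a stated strand setting this value is uncertain. ZNF467, whose mouse counterpart favours fat over bone cell formation, had 6.48, 8.64 and 8.999 CPM in shSATB1, against 4.13, 4.95 and 5.32 CPM in shCtrl. The lowest shSATB1 library exceeded the highest shCtrl library, and the log2 fold change was 0.80 (SE 0.144; adjusted p = 0.000585, edgeR).

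ZNF81 is a KRAB zinc finger gene of the short arm of X, with 12 C2H2 fingers found by a sequence pattern. It had 37.1, 30.9 and 32.4 CPM in shSATB1, against 22.9, 12.2 and 17.5 CPM in shCtrl. The groups did not overlap and shCtrl 2 was the lowest library. Its log2 fold change was 0.78 (SE 0.125; adjusted p = 0.000229, edgeR), and 0.93 before the correction for its longest transcript of 7933 bases. ZNF462, in whose protein the same pattern found 34 fingers, is mutated in a developmental syndrome and takes part in heterochromatin formation in mouse cells. It had 67.9, 66.7 and 68.4 CPM in shSATB1, against 48.6, 35.0 and 43.8 CPM in shCtrl. The shSATB1 libraries were close together and all lay above shCtrl, with a log2 fold change of 0.48 (SE 0.0625; adjusted p = 4.21e-05, edgeR).

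ZNF713, the gene whose intron holds the fragile site FRA7A repeat, averaged 7.26 ± 0.857 CPM in shSATB1 and 4.72 ± 0.391 CPM in shCtrl (SD, n = 3 each), a log2 fold change of 0.58. ZNF853 averaged 8.98 ± 0.4995 CPM in shSATB1 and 6.001 ± 1.03 CPM in shCtrl, a log2 fold change of 0.56. ZNF484, a KRAB gene of chromosome 9, averaged 14.4 ± 1.26 CPM in shSATB1 and 9.73 ± 2.05 CPM in shCtrl, a log2 fold change of 0.54. These 3 genes had adjusted p values of 0.00329, 0.0037 and 0.00466 (edgeR) and kept their calls whichever library was left out. ZNF157, a KRAB gene that neighbours ZNF81 on X, averaged 3.47 ± 0.432 CPM in shSATB1 and 2.23 ± 0.570 CPM in shCtrl. Its log2 fold change of 0.70 (adjusted p = 0.016, edgeR) lost its call without shCtrl 3 (0.64, adjusted p = 0.0698) and without shSATB1 1 (0.59, adjusted p = 0.0873). With the covariate for reads outside exons, ZNF821, ZNF467 and ZNF853 kept their calls in both fits and ZNF462 kept that of the length-corrected fit (0.33, adjusted p = 0.026) and not that of the plain fit (0.28, adjusted p = 0.0708). The calls of ZNF81, ZNF157, ZNF713 and ZNF484 were lost in both fits, at 0.18, 0.041, 0.33 and -0.025 after length correction.

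**Figure D3:**
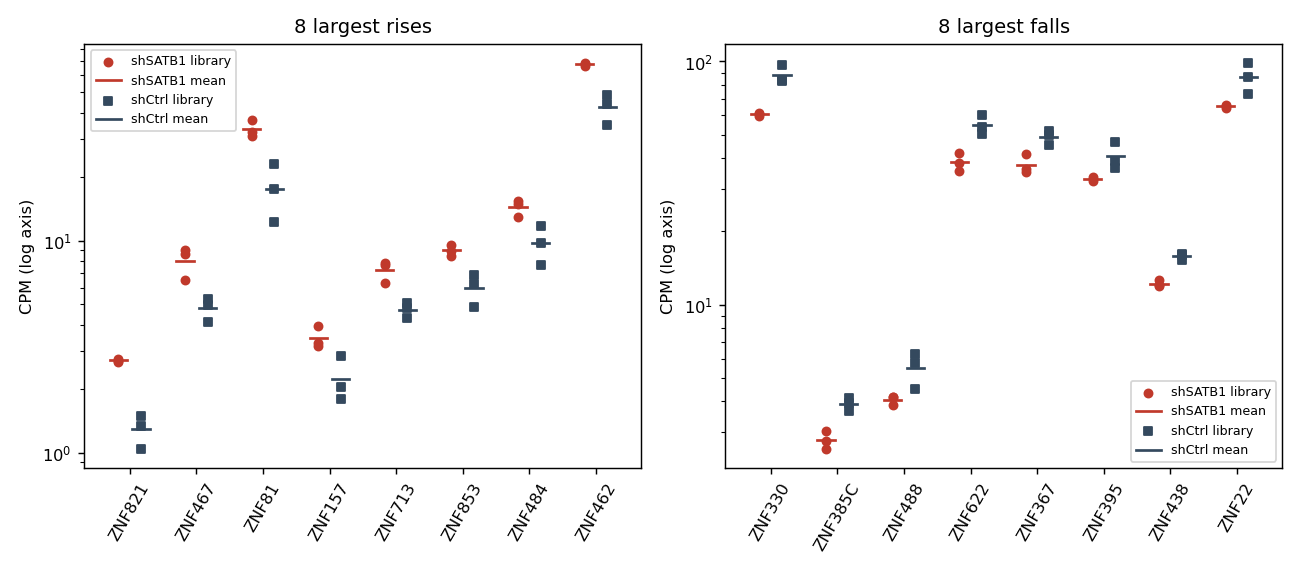
CPM per library (log axis) of the 8 ZNF genes with the largest rises (left) and the 8 with the largest falls (right) among those called in both fits, with shSATB1 in red circles left of shCtrl in dark squares and lines at the group means. For all 16 genes the groups do not overlap, which was a condition of the choice; ZNF821 has the widest gap, with means of 2.72 CPM in shSATB1 and 1.29 CPM in shCtrl.

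The 8 largest falls came from ZNF330, ZNF385C, ZNF488, ZNF622, ZNF367, ZNF395, ZNF438 and ZNF22. They were chosen in the same way, so here too the lack of overlap was a condition of the choice. In none of these 8 proteins was a KRAB-like sequence found, as in 120 of the 221 tested members. Of all 22 length-corrected falls, 7 had a KRAB-like match. ZNF330, a nucleolar protein, had 61.5, 60.9 and 59.5 CPM in shSATB1, against 83.4, 96.8 and 83.9 CPM in shCtrl. All shSATB1 libraries were lower, and the gene fell by 0.46 on the log2 scale after length correction (SE 0.0585; adjusted p = 3.43e-05, edgeR). No classical C2H2 finger was found in its protein by the pattern used. ZNF622, the counterpart of a yeast factor of late 60S ribosome maturation, had 35.4, 42.1 and 38.1 CPM in shSATB1, against 50.3, 60.3 and 53.9 CPM in shCtrl. The groups were well apart, with a log2 fold change of -0.42 (SE 0.0695; adjusted p = 0.00031, edgeR).

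ZNF22, also called KROX26 and studied in tooth development, had 66.1, 64.4 and 65.6 CPM in shSATB1, against 73.5, 98.3 and 86.2 CPM in shCtrl. The shSATB1 libraries were close together while shCtrl spread widely, and the log2 fold change was -0.34 (adjusted p = 0.00254, edgeR). Exons of C10orf25 and CEP164P1 cover 45.3% of its exon bases. ZNF367 averaged 37.7 ± 3.49 CPM in shSATB1 and 48.9 ± 3.19 CPM in shCtrl (SD, n = 3 each), a log2 fold change of -0.38 (adjusted p = 0.00127, edgeR). ZNF438 averaged 12.2 ± 0.407 CPM in shSATB1 and 15.9 ± 0.466 CPM in shCtrl, a log2 fold change of -0.37 (adjusted p = 0.00373, edgeR). ZNF395, known as a factor that binds the regulatory region of the Huntington disease gene, averaged 32.8 ± 0.520 CPM in shSATB1 and 40.7 ± 5.30 CPM in shCtrl, a log2 fold change of -0.37 (adjusted p = 0.00466, edgeR). Its neighbour FBXO16 lies on the same strand over 34.9% of its exon bases, and in the plain fit its call was lost without shSATB1 1, shSATB1 2 or shSATB1 3 (-0.30, -0.29 and -0.32).

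The calls of the 2 falls of lowest abundance were not stable. ZNF385C averaged 2.78 ± 0.244 CPM in shSATB1 and 3.92 ± 0.246 CPM in shCtrl, and ZNF488, which acts with OLIG2 in mouse oligodendrocytes, averaged 4.07 ± 0.181 CPM in shSATB1 and 5.50 ± 0.891 CPM in shCtrl. Their length-corrected log2 fold changes were -0.44 and -0.43 (adjusted p = 0.0401 and 0.0372, edgeR). The ZNF385C call was lost whichever of the 6 libraries was left out, at values from -0.50 to -0.39. The ZNF488 call held only without shCtrl 2 and was lost in the other 5 such fits, at values from -0.45 to -0.33. After length correction DESeq2 called neither gene (adjusted p = 0.0821 and 0.0534). With the covariate for reads outside exons, ZNF330 and ZNF488 kept their calls and the other 6 did not. For ZNF385C, ZNF367 and ZNF438 the length-corrected values were then -0.36, -0.28 and -0.36. For ZNF622, ZNF22 and ZNF395 they were -0.22, -0.067 and -0.0054.

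The 5 members of highest abundance per kb of transcript were ZNF664, ZNF330, ZNF217, ZNF512B and ZNF22, at 53.5, 39.1, 35.2, 30.1 and 29.7 CPM per kb over the 6 libraries, where the median tested member had 6.17. They did not move one way. ZNF217, a breast cancer oncogene whose protein binds the CoREST and LSD1 corepressor, had 238, 235 and 242 CPM in shSATB1, against 182, 161 and 168 CPM in shCtrl. Its groups lay far apart, with a log2 fold change of 0.39 (SE 0.0488; adjusted p = 2.93e-05, edgeR). ZNF664 had 268, 255 and 262 CPM in shSATB1, against 290, 282 and 283 CPM in shCtrl. That narrow gap passed the length-corrected test (-0.20, SE 0.0485; adjusted p = 0.00552, edgeR) and not the plain test (-0.12, adjusted p = 0.12). With the covariate for reads outside exons the ZNF664 call was lost (-0.18, adjusted p = 0.114). ZNF512B, a NuRD-binding protein, averaged 192 ± 10.4 CPM in shSATB1 and 164 ± 15.6 CPM in shCtrl (SD, n = 3 each). It passed the plain test (0.23, adjusted p = 0.0321, edgeR) and not the length-corrected one (0.13, adjusted p = 0.12), and the plain call was lost without shSATB1 1 or shSATB1 2 (0.23 and 0.20). The plain call was also lost with that covariate (0.053, adjusted p = 0.769). Measured against merged exon length in place of the longest transcript, ZNF512B passed at 0.19 (adjusted p = 0.0336).

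Among 9 promoter and loop factors on a list drawn up for this purpose, 3 rose in both fits, none fell, and 6 were not called, where 11.4% and 14.6% of all tested genes were called in both. The list's length-corrected median was -0.0087, like that of all tested genes at -0.0078. ZNF24, a SCAN-domain protein needed for myelination in mouse, had 240, 221 and 240 CPM in shSATB1, against 170, 155 and 163 CPM in shCtrl. Every shSATB1 library was far above every shCtrl library, and the length-corrected log2 fold change was 0.37 (SE 0.0504; adjusted p = 5.16e-05, edgeR). ZNF384, a fusion partner in B cell leukaemia, averaged 72.4 ± 1.89 CPM in shSATB1 and 58.8 ± 6.64 CPM in shCtrl (SD, n = 3 each), a log2 fold change of 0.32 (adjusted p = 0.00452, edgeR), although exons of AC125494.1 cover 31.9% of its own. With the covariate for reads outside exons its value was 0.043 (adjusted p = 0.843). ZNF281, a regulator of pluripotency and epithelial-mesenchymal transition, averaged 87.6 ± 2.21 CPM in shSATB1 and 72.1 ± 3.91 CPM in shCtrl, a log2 fold change of 0.22 (adjusted p = 0.00724, edgeR), a call lost with that covariate (0.21, adjusted p = 0.144). ZNF143, which binds the promoters of many protein-coding and small nuclear RNA genes, had 32.6, 28.4 and 30.5 CPM in shSATB1, against 29.9, 29.1 and 26.0 CPM in shCtrl. Its groups overlapped, and neither test called it (0.14, adjusted p = 0.203 after length correction). The others not called were ZNF76, ZNF148, ZNF263, ZNF202 and ZNF410.

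Of 19 listed regulators, corepressor partners among them, 17 were tested. The list also holds genes described here by other roles, such as ZNF318 and ZNF423, so its shares are not those of corepressor partners alone. In the plain fit 10 rose and none fell (58.8%), beside 14.3% and 16.6% of all tested genes, and after length correction 6 rose and 1 fell (35.3% and 5.88%), beside 13.2% and 18.5%. Their median longest transcript was 7907 bases, and the list's median log2 fold change was 0.27 in the plain fit and 0.11 after correction, beside 0.01 and -0.01 for all tested genes. The length-corrected rises were ZNF217, ZNF462, ZNF292, ZNF516, ZNF518B and ZNF318. ZNF518B, a partner of the G9a and GLP methyltransferases, had 180, 174 and 178 CPM in shSATB1, against 150, 117 and 132 CPM in shCtrl. All shSATB1 libraries lay above shCtrl, with a log2 fold change of 0.29 (SE 0.0557; adjusted p = 0.00105, edgeR). ZNF292 had 155, 140 and 160 CPM in shSATB1, against 122, 89.3 and 110 CPM in shCtrl. Those groups did not overlap either, and the log2 fold change was 0.30 after correction (adjusted p = 0.00119, edgeR) and 0.50 before. ZNF516, a CtBP and LSD1 partner, averaged 37.9 ± 1.07 CPM in shSATB1 and 27.6 ± 4.01 CPM in shCtrl (SD, n = 3 each), a log2 fold change of 0.30 (adjusted p = 0.00553, edgeR).

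ZNF318, which in mouse B cells allows the long IgD transcript to be made, averaged 84.2 ± 1.54 CPM in shSATB1 and 66.7 ± 7.01 CPM in shCtrl, a log2 fold change of 0.18 (adjusted p = 0.021, edgeR). With the covariate for reads outside exons the calls of ZNF518B, ZNF292, ZNF516 and ZNF318 were lost, at 0.13, 0.12, 0.12 and 0.11 after length correction. The ZNF318 call was also lost without shCtrl 3, shSATB1 1 or shSATB1 2 (0.20, 0.18 and 0.17). ZNF423, an EBF1 partner, and ZNF827, which brings NuRD to telomeres, rose in the plain fit (0.75 and 0.46; adjusted p = 0.0251 and 0.0138, edgeR) and missed the threshold after correction (0.60 and 0.31; adjusted p = 0.0629 and 0.0656). Each of the plain calls was lost in some fits with a library left out, ZNF423 without shCtrl 2, shSATB1 1, shSATB1 2 or shSATB1 3 (0.63, 0.76, 0.82 and 0.70) and ZNF827 without shCtrl 3, shSATB1 1 or shSATB1 3 (0.45, 0.42 and 0.44). With the covariate, ZNF423 and ZNF827 lost their plain calls (0.50 and 0.26, adjusted p = 0.532 and 0.545). Corrected for merged exon length, both were called (0.65 and 0.36; adjusted p = 0.0427 and 0.0338), and ZNF423 was also called without shCtrl 3 (0.85, adjusted p = 0.0264). ZNF644, a G9a and GLP partner like WIZ, averaged 103 ± 5.70 CPM in shSATB1 and 108 ± 2.33 CPM in shCtrl, and its groups overlapped. Its length-corrected log2 fold change of -0.16 (adjusted p = 0.0376, edgeR) held only without shCtrl 1, with values from -0.19 to -0.12 in the 5 fits where it was lost, and it was lost with merged exon length (-0.14, adjusted p = 0.0819) and with no filter (adjusted p = 0.0567). The covariate for reads outside exons also removed the ZNF644 call (-0.14, adjusted p = 0.348).

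Of 9 ZNF genes with RNA, splicing or ribosome roles, 3 rose and 2 fell in the plain fit, while none rose and 3 fell after length correction. Over all tested genes 14.3% were higher and 16.6% lower in the plain fit, and 13.2% and 18.5% after correction. A list of 9 genes is too small to set against those shares. The 3 falls were ZNF622, ZNF598 and ZNF207. ZNF598, the ubiquitin ligase that marks collided ribosomes, had 74.3, 81.1 and 77.1 CPM in shSATB1, against 90.5, 83.9 and 90.6 CPM in shCtrl. The groups did not overlap, and the length-corrected log2 fold change was -0.23 (SE 0.0556; adjusted p = 0.00451, edgeR). With the covariate for reads outside exons ZNF598 missed the threshold in both fits (-0.25 and -0.26). In the plain fit without it the value was -0.19, and that call was lost without shCtrl 3, shSATB1 1 or shSATB1 3 (-0.17, -0.15 and -0.18).

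ZNF207, the spindle protein BuGZ, had 293, 276 and 281 CPM in shSATB1, against 282, 278 and 280 CPM in shCtrl. Those libraries overlap and differ little in CPM, with a plain log2 fold change of 0.02, and the fall of 0.24 arose with the correction for its longest transcript of 13781 bases (-0.24, adjusted p = 0.0148, edgeR). It was lost without shSATB1 1, shSATB1 2 or shSATB1 3 (-0.25, -0.25 and -0.22). The covariate for reads outside exons also removed the ZNF207 call (0.056, adjusted p = 0.712). ZNF638, which silences unintegrated retroviral DNA, and ZNF326, a subunit of the DBIRD complex that couples splicing to elongation, rose in the plain fit (0.22 and 0.24; adjusted p = 0.0156 and 0.0102, edgeR) and not after correction (0.09 and 0.05). Both plain calls were lost without shCtrl 3, shSATB1 1 or shSATB1 3, with ZNF638 at 0.19, 0.20 and 0.22 and ZNF326 at 0.24, 0.22 and 0.23. They were also lost with the covariate (0.20 for each gene, adjusted p = 0.109 for ZNF638 and 0.131 for ZNF326). ZNF638 passed after correction without shCtrl 2 (0.15, adjusted p = 0.0211).

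Of 10 well-studied KRAB proteins 9 were tested. The plain fit called none and the length-corrected fit called ZNF445 lower, too few genes to set against the 13.2% higher and 18.5% lower of all tested genes, and the list's median log2 fold change was 0.06 and -0.02. ZNF10, the source of the KRAB domain used in synthetic repressors, averaged 3.15 ± 0.308 CPM in shSATB1 and 2.73 ± 0.129 CPM in shCtrl (SD, n = 3 each), with no call (0.16, adjusted p = 0.494, edgeR). ZNF445, which protects genomic imprints together with ZFP57, had 160, 155 and 151 CPM in shSATB1, against 166, 121 and 142 CPM in shCtrl. The groups overlapped and the plain value was 0.12, while the length-corrected value was -0.16 (adjusted p = 0.0247, edgeR) with a longest transcript of 18299 bases. The ZNF445 call was lost with merged exon length (-0.09, adjusted p = 0.273) and without shCtrl 3, shSATB1 1 or shSATB1 3 (-0.17, -0.16 and -0.13), and the plain fit called the gene higher without shCtrl 1 (0.24, adjusted p = 0.00911). With the covariate for reads outside exons the length-corrected call was lost (-0.15, adjusted p = 0.23). The plain fit with that covariate called the gene lower (-0.26, adjusted p = 0.0331).

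KRAB-like sequences were found in 123 of the members by a profile search of translated GENCODE 29 coding sequences, and 101 of these were tested. After length correction 26 of the 101 rose and 7 fell (25.7% and 6.93%), beside 13.2% and 18.5% of all tested genes, with a median log2 fold change of 0.13. Of the 120 tested members with no KRAB-like match, 30 rose and 15 fell (25% and 12.5%), with a median of 0.09. The 19 tested members with a SCAN-like match gave 5 rises and 2 falls. By number of C2H2 fingers found by pattern, 11 rose and 11 fell of the 50 tested members with 0 to 4 fingers (22% each), 18 rose and 6 fell of the 74 with 5 to 9, and 27 rose and 5 fell of the 97 with 10 or more. The medians of those groups were 0.03, 0.10 and 0.12. No test was made between these groups, and their genes differ in transcript level as well, with median CPM of 34.1, 32.4 and 22.9.

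**Figure D4:**
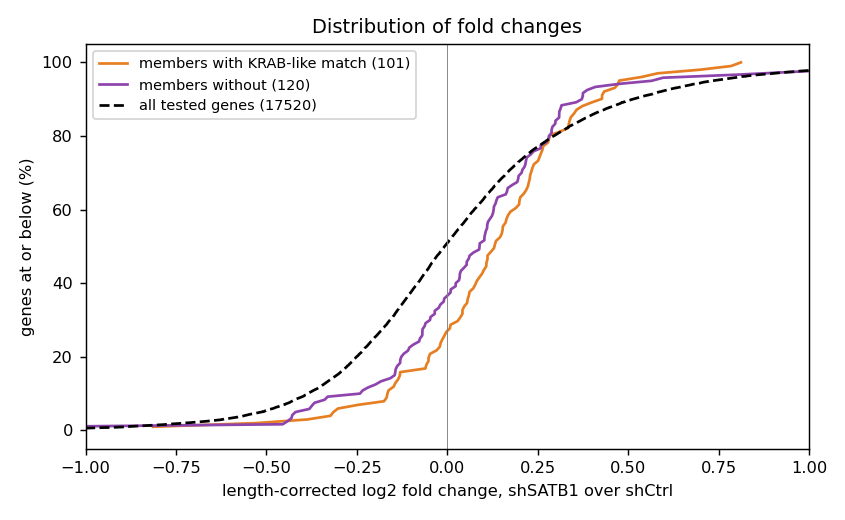
Cumulative percentage of genes at or below each length-corrected log2 fold change (shSATB1 over shCtrl) for the 101 tested ZNF genes with a KRAB-like match (orange), the 120 without (purple) and all 17520 tested genes (dashed black). Both ZNF curves lie to the right of the dashed curve around 0, with medians of 0.13 and 0.09 against -0.01.

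Calls were made at every level of expression. After length correction 20 of the 62 members at 50 CPM or more rose and 11 fell (32.3% and 17.7%), beside 13.3% and 38.0% of all tested genes in that range. Between 20 and 50 CPM 18 of 77 rose and 5 fell (23.4% and 6.49%), beside 16.3% and 23.6% of all genes. Between 5 and 20 CPM 13 of 43 rose and 3 fell (30.2% and 6.98%), beside 17.8% and 13.2%. Between 1 and 5 CPM the shares called went the other way, with 2 of 27 higher and 2 lower (7.41% each), beside 12.2% and 4.76% of all genes. The median length-corrected log2 fold change of those 27 members was 0.22, beside 0.11 for all genes in that range. Below 1 CPM 3 of 12 rose and 1 fell, beside 6.83% and 1.48%. Among these rises was ZNF683, which encodes Hobit, a regulator of tissue-resident T cells, and which was picked out after its values were seen. It had 0.692, 1.02 and 1.03 CPM in shSATB1, against 0.179, 0.400 and 0.369 CPM in shCtrl. The groups did not overlap at this low level, and the log2 fold change was 1.62 (SE 0.374; adjusted p = 0.0039, edgeR), or 3.06-fold.

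Along the genome, 93 members fell into 14 clusters of at least 4 genes with gaps of up to 500 kb, and 78 of those were tested. The X cluster at chrX:47370583-48071658 (hg38) held 4 tested genes, ZNF157, ZNF41, ZNF81 and ZNF182. In all 4 every shSATB1 library lay above every shCtrl library, as in 42.5% of tested members and 21.7% of all tested genes. ZNF182 had 43.4, 39.7 and 38.0 CPM in shSATB1, against 31.8, 34.3 and 33.6 CPM in shCtrl. It rose by a log2 fold change of 0.28 (adjusted p = 0.00608, edgeR), a call lost without shSATB1 1 (0.22, adjusted p = 0.0511). The covariate for reads outside exons left it at 0.34 with an adjusted p of 0.0528. ZNF41 averaged 26.8 ± 2.45 CPM in shSATB1 and 23.4 ± 1.08 CPM in shCtrl (SD, n = 3 each) and was not called (0.15, adjusted p = 0.184).

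The pericentromeric cluster at chr7:64045443-65401135 held 10 members. Of its 7 tested genes, ZNF92, ZNF117, ZNF138 and ZNF273 rose after length correction and none fell. Over all tested members 25.3% rose and 9.95% fell, and over all tested genes 13.2% and 18.5%. ZNF117 had 91.3, 80.9 and 93.9 CPM in shSATB1, against 60.3, 57.1 and 58.9 CPM in shCtrl. Its shSATB1 libraries were all far higher, with a log2 fold change of 0.41 (SE 0.0628; adjusted p = 0.00016, edgeR), and 3.48% of its exon bases are shared with the endogenous retroviral gene ERV3-1 on the same strand. In the cluster at chr7:149069643-149867479 all 10 members were tested, ZNF862, ZNF467 and ZNF425 rose and none fell. Clusters of 7 and 10 tested genes are too small to set against the shares above. Genes of such clusters are near-identical over parts of their length, and the counting of reads between copies is not given in the sources used here.

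Other clusters held few calls. None of the 6 tested members of the cluster at the end of chromosome 8 and none of the 7 in the cluster at chr16:3112560-3443553 passed either test. The largest cluster, at chr16:30378106-31917357, had 14 tested members, of which ZNF764 and ZNF720 rose and ZNF689 fell. After length correction 25.3% of all tested members rose and 9.95% fell, beside 13.2% and 18.5% of all tested genes. By chromosome, 11 of 28 tested members on chromosome 7, 6 of 11 on X and 6 of 11 on chromosome 9 rose after length correction, beside 15.98%, 14.3% and 13.1% of all tested genes on those chromosomes. None of the members fell on 7 or X and 1 fell on chromosome 9, beside 17.7%, 16.7% and 21.5% of all tested genes there. On chromosome 17, 3 of 12 rose and 5 fell, beside 13.2% and 17.98% of all tested genes. On chromosome 10, 1 of 15 rose and 3 fell, beside 13.5% and 18.6%. These chromosomes were picked out after their counts were seen.

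**Figure D5:**
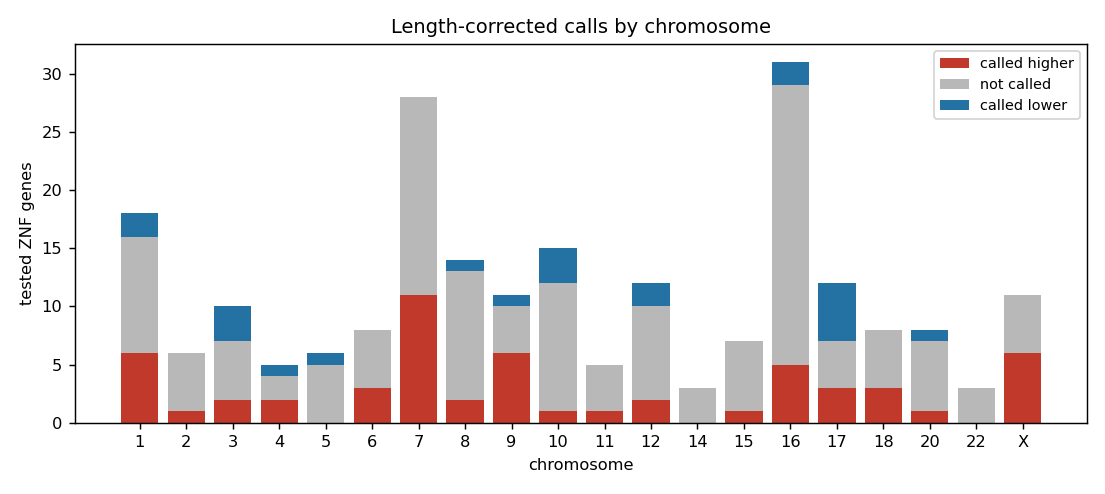
Number of tested ZNF genes per chromosome by length-corrected call, as stacked bars (higher in red, not called in grey, lower in blue) for chromosomes with at least 1 tested member. Chromosome 7 has 11 genes called higher of 28 and none lower, while chromosome 17 has 3 higher and 5 lower of 12.

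RefSeq promoter windows of 300 bases (250 before to 50 after the start, GRCh38.p14) were matched by symbol for 211 members, 177 of them tested. The median window of a tested member was 62.7% G and C and held 24 CG dinucleotides, beside 58.3% and 14 over 27305 genes and 64.7% and 25 over the 10892 of those that were tested here. The sequence CCGGAAG, the core bound by ETS factors, was searched on both strands because it stood in several of the windows read first. It was found in 37.3% of tested members' windows, 21.3% of tested genes' windows and 12.2% of all genes' windows. Since it was picked from members' windows and counted on the same windows, its excess there describes these sequences and is no finding. Among members by length-corrected call, 17 of 46 that rose, 5 of 19 that fell and 44 of 112 not called held it. The sequence AATATATTT, the core of AT-rich elements that SATB1 binds, was found on either strand in none of the 177 windows, in 0.266% of tested genes' windows and in 0.604% of all windows. At so low a share, 177 windows are too few to tell whether the members lack it. The bases from 200 before to 25 after the start are shown for 2 members that rose (ZNF81 and ZNF24) and 2 that fell (ZNF330 and ZNF622), 5′ to 3′ with CCGGAAG in capitals.
ZNF81, chrX:47836702-47836926, plus strand: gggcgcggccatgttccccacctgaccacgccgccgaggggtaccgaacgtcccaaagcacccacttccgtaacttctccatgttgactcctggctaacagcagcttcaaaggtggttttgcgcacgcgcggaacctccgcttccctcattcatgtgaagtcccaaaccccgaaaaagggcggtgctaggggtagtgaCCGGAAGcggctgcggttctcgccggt
ZNF24, chr18:35344396-35344620, minus strand: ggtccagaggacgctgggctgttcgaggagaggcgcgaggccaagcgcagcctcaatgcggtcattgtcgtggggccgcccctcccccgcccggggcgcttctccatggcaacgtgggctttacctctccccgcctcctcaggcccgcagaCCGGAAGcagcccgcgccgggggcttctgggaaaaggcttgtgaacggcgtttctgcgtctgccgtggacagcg
ZNF330, chr4:141220695-141220919, plus strand: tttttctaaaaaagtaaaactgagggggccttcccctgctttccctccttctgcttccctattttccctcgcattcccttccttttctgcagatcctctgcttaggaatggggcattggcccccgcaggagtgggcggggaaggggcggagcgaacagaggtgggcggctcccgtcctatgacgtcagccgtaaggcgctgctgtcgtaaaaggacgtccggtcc
ZNF622, chr5:16465776-16466000, minus strand: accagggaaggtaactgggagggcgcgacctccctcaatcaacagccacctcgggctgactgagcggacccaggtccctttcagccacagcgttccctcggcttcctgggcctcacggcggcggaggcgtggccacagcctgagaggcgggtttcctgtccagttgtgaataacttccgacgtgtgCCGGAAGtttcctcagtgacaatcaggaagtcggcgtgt
One match each was found in the stretches of ZNF81, ZNF24 and ZNF622, which include both directions of change, and 0 in that of ZNF330. These 4 stretches hold 20, 23, 13 and 16 CG dinucleotides in the order shown.

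Of 33 genes of the silencing machinery that KRAB zinc fingers recruit, all tested, 4 rose and 11 fell after length correction (12.1% and 33.3%). The list's median was 129 CPM, and over all tested genes at 50 CPM or more 13.3% were higher and 38.0% lower, so the list lay near the share for genes of that abundance. In the plain fit 7 rose and 8 fell (21.2% and 24.2%), beside 14.3% and 16.6% of all tested genes. TRIM28, the direct KRAB partner, had 340, 369 and 339 CPM in shSATB1, against 396, 446 and 432 CPM in shCtrl. All shSATB1 libraries were lower, with a length-corrected log2 fold change of -0.25 (SE 0.0537; adjusted p = 0.00227, edgeR). With the covariate for reads outside exons that call was lost (-0.12, adjusted p = 0.3). SETDB1, the methyltransferase that TRIM28 recruits, was called in neither fit. The rises were ATF7IP, a SETDB1 cofactor, CHD3 of NuRD, TRIM33 and the chromatin remodeller ATRX. The falls besides TRIM28 included UHRF1, DNMT1 and DNMT3B of DNA methylation, CBX1, CHD4, HDAC2 and SUV39H1.

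Other zinc finger families also had positive medians, and the shares called differed between them. After length correction, 32 of 192 tested ZNF genes on chromosome 19 rose and 8 fell (16.7% and 4.17%), with a median log2 fold change of 0.08. Among the members 25.3% rose and 9.95% fell, and among all tested genes 13.2% and 18.5%. The genes on chromosome 19 are expressed lower, with a median of 13.4 CPM, where the members had 26.9 CPM. Of 40 tested ZBTB genes, 11 rose and 3 fell (27.5% and 7.5%, median 0.11). Of 20 ZSCAN and ZKSCAN genes, 9 rose (45%) and none fell (median 0.25). Of 17 ZFP genes, 5 rose and 1 fell (29.4% and 5.88%, median 0.15). No test was made between families, so whether the genes off chromosome 19 differ from the others was not tested.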

How the data were processed

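RNA-seq of Jurkat cells gave 3 shSATB1 and 3 shCtrl libraries, grouped by sample title. The authors deposited 1 file of raw counts a library, with reads summed over each Ensembl gene and no normalization. Per the submitters' processing notes the tools were Trim Galore, STAR and HTSeq (versions not given) and the build hg38. Strand setting: not given in the sources used here, as is the annotation release. Of the tested members 103 share exon bases with another gene, 27 of them over more than 20% of their exon bases, so those counts are uncertain. Table lines that name no gene (7.77% to 11.7% of reads in no annotated exon, and 8.99% to 10.1% ambiguous) stayed out of library sizes and tests. Symbols, types, transcript lengths and coordinates came from GENCODE 29, in which all 58735 identifiers were found.

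The test was edgeR's (4.0.16, under R 4.3.3), with TMM, genes kept by filterByExpr at a count of 10, the quasi-likelihood F test, and Benjamini-Hochberg adjustment over 17520 genes with a threshold of 0.05. CPM values use effective library sizes. For the length-corrected fit, each library's deviation of log2 CPM from the gene mean was fitted by a natural spline with 5 degrees of freedom on the log2 length of the longest transcript, over genes of at least 1 CPM, and entered as an offset. The trend thus removes any true change that follows length. Standard errors are the size of the log2 fold change divided by the root of F. Both fits were tested on simulated data. KRAB-like and SCAN-like sequences were found with HMMER 3.4 profiles built from the ZNF proteins themselves (E up to 0.001). The biological coefficient of variation was 7.27% in the plain fit and 6.21% in the length-corrected fit. Depth is similar in all libraries, and 3 reads correspond to 0.103 to 0.111 CPM.

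Named genes were the 8 largest rises and 8 largest falls in the length-corrected fit among members called in both fits, with 2 CPM or more in the group where they are higher and no overlap between groups, the 5 members of highest CPM per kb, and members of role lists. The members and lists were chosen with earlier results of these data known. Alternatives were 2 other normalizations, 2 filters, DESeq2 1.42.0, limma 3.58.1 (voom), a replicate block, each library left out in turn, reads outside exons as a covariate, merged exon length, a GC trend, other gene sets for the trend, and stricter member rules. Replicate numbers were not used to pair the libraries in the main fits.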

Additional observations from a re-analysis of the deposited data

How the results depend on the processing

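The number of members called higher and lower and their median log2 fold change were recomputed under each alternative in both fits. With another normalization, another filter, DESeq2, limma-voom, merged exon length, a length and GC trend, or another gene set for the trend, every count was within 1.5 times that reported. With reads outside exons as a covariate, the plain fit called 13 higher and 4 lower with a median of 0.064, and the length-corrected fit called 11 higher and 3 lower with a median of 0.066. Leaving out each library in turn gave 40 to 81 higher, 5 to 14 lower and medians of 0.12 to 0.18 in the plain fit, and 35 to 60 higher, 11 to 22 lower and medians of 0.09 to 0.12 in the length-corrected fit. In the plain fit these were 18.1% to 36.5% and 2.3% to 6.3% of members, beside 9.2% to 17.9% and 10.1% to 19.8% of all tested genes. After length correction they were 15.8% to 27.0% and 5.0% to 9.9% of members, beside 8.8% to 15.4% and 13.1% to 20.6% of all tested genes. In all such fits 38 of the 69 plain rises, 5 of the 12 plain falls, 30 of the 56 length-corrected rises and 10 of the 22 length-corrected falls were called. DESeq2 called 65 of the 69 and 53 of the 56 rises.

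The labels give replicate numbers and no pairing. Correlations of deviations between same-numbered libraries were 0.18, 0.13 and -0.00, and between differently numbered libraries they ran from -0.18 to 0.04. Whether libraries of the same number were prepared together was not tested. With the replicate block the plain fit called 76 higher and 13 lower (median 0.17) and the length-corrected fit 57 higher and 22 lower (median 0.11).

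For the 42 genes named with tested values, 1210 of the recomputed values kept their direction and side of the threshold, 115 lost the call, 9 gained it and 8 changed sign. With the covariate, ZNF484 was at -0.014 in the plain fit and -0.025 after length correction, ZNF207 at -0.018 and 0.056, and ZNF445 at -0.26 in the plain fit. That ZNF445 value was a call in the lower direction (adjusted p = 0.0331, edgeR). With each library left out in turn, ZNF207 in the plain fit ran from -0.0014 (without shSATB1 1) to 0.043, and ZNF326 after length correction from -0.024 (without shCtrl 1) to 0.12. With a length and GC trend ZNF326 was at -0.017. The cause of these changes was not tested. Among members under 5 CPM, depth and 3 libraries a group limit which differences can pass the test.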
